A study of Saccharomyces cerevisiae S288C with 8 samples.

Results

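At 6 sites of the budding yeast genome there was a peak of the centromeric histone Cse4, away from the centromeres, in each of 4 peak lists. These sites were selected on the peak calls themselves: a non-CEN peak (a peak that overlaps no centromere) had to be present at the site in all 4 lists. The 8 genes at or beside them are FLC2 and OAF1, which flank 1 gap, YDR524C-B, GCN4, YEL008W and MIT1, which flank another gap, HIP1, whose downstream side carries the peak, and ZEO1. They are 8 of the 6002 protein-coding genes annotated in the R64 reference, and their 6 sites are 6 of the 30 non-CEN peaks in the shortest list. Because the peaks chose the sites, the presence of a peak and its fold enrichment are described without a test.

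Each list came from 1 ChIP-seq library and 1 input library of 1 strain. The strains were wild type with endogenous Cse4, cdc7-7 with endogenous Cse4, wild type with GAL-FLAG-CSE4 and cdc7-7 with GAL-FLAG-CSE4. The cdc7-7 allele is a conditional mutation of the kinase Cdc7, and GAL-FLAG-CSE4 is an integrated copy of tagged CSE4 under a galactose-inducible promoter. Glucose medium was used for endogenous Cse4 and raffinose/galactose medium for GAL-FLAG-CSE4, in each case for 1.75 hr, and all cultures were fixed with 1% formaldehyde for 20 min at 30°. Expression of Cse4 and carbon source therefore changed together, and their parts in any difference cannot be told apart. The labels give an HA tag for endogenous Cse4 although an anti-FLAG resin was used for all strains, while the study's text names the protein Flag-Cse4. With 1 library per strain there was no replicate error, so no p-value for a difference between strains could be computed.

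Cse4, the yeast form of CENP-A, takes the place of histone H3 in the centromeric nucleosome on which the kinetochore is built. Cells keep it away from the chromosome arms mainly by degrading the excess protein. Cdc7 with its partner Dbf4 forms the kinase DDK, best known for starting DNA replication. A non-CEN peak marks DNA recovered above its local background and is not by itself proof of a bound nucleosome.

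The sites differ in where the DNA with the most fragments lay. The sequences around the summits (the base of a peak with the highest fragment pileup) are shown first because they fix these places base by base, 5′ to 3′ on the strand of the gene named, except where stated, in the R64 build. At ZEO1, on chrXV:110350-110638 of the plus strand, the 4 summits fell in the coding sequence, and the capitals mark 11 bases centered on each. In order they belong to wild type GAL-FLAG-CSE4, cdc7-7 GAL-FLAG-CSE4, wild type endogenous Cse4 and cdc7-7 endogenous Cse4.
ZEO1: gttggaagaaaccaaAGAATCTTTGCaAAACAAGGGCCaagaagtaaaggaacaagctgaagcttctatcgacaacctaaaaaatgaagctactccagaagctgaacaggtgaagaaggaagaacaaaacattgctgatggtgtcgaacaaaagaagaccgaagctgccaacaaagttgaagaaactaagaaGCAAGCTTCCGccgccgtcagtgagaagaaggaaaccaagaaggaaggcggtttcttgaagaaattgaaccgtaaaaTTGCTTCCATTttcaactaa
The whole coding sequence of YDR524C-B, chrIV:1489598-1489798 on the minus strand, held all 4 summits. In order the capitals mark cdc7-7 GAL-FLAG-CSE4, wild type GAL-FLAG-CSE4, cdc7-7 endogenous Cse4 and wild type endogenous Cse4.
YDR524C-B: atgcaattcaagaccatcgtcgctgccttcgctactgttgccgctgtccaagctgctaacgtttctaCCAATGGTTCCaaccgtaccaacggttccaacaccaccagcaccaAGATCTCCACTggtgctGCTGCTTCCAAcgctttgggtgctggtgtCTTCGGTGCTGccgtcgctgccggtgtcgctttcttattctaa
At GCN4, on the minus strand, 3 summits lay close together within chrV:139466-139602, in the order cdc7-7 endogenous Cse4, wild type endogenous Cse4 and wild type GAL-FLAG-CSE4. The summit of cdc7-7 GAL-FLAG-CSE4 lay apart from them near the end of the gene, within chrV:139021-139061.
GCN4, 3 summits: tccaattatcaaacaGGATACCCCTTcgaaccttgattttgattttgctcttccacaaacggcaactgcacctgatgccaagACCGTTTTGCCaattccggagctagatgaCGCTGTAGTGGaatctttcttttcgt
GCN4, cdc7-7 GAL-FLAG-CSE4: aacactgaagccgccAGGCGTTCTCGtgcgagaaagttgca

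At the remaining sites the summits lay between genes, and 30 bases of the plus strand are given for each place, with 5 bases in capitals centered on each summit. Before OAF1 the first run, chrI:48515-48544, holds the summits of wild type endogenous Cse4 and wild type GAL-FLAG-CSE4, which fell on the same base, and then that of cdc7-7 GAL-FLAG-CSE4. The second, chrI:48444-48473, holds that of cdc7-7 endogenous Cse4.
OAF1 upstream, 3 summits: gctattttgTGTTAgAAGCAggttaataat
OAF1 upstream, cdc7-7 endogenous Cse4: gccgcttttttcTGACAtcttttttgacgt
Before MIT1 the runs are chrV:141284-141313 with both wild type summits, endogenous first, chrV:141436-141465 with that of cdc7-7 GAL-FLAG-CSE4 and chrV:141196-141225 with that of cdc7-7 endogenous Cse4.
MIT1 upstream, both wild type summits: ttttccGCCGGcaactgtaACTGTaaactg
MIT1 upstream, cdc7-7 GAL-FLAG-CSE4: atttggctgaatCTTCCtcatcttgcccct
MIT1 upstream, cdc7-7 endogenous Cse4: aggtcggttttcCTCTCagtctccgtacat
After HIP1 the runs are chrVII:882425-882454 with the summit of cdc7-7 GAL-FLAG-CSE4, chrVII:882521-882550 with that of wild type GAL-FLAG-CSE4 and chrVII:882792-882821, which reaches the end of TDH3 and holds both endogenous summits on adjacent bases.
HIP1 downstream, cdc7-7 GAL-FLAG-CSE4: ctgactgcacgcAAATAtaggcatgattta
HIP1 downstream, wild type GAL-FLAG-CSE4: gaaaaaattcatTTGTAaactttaaaaaaa
TDH3 end, both endogenous summits: aagatttaaagtAAATTCacttaagccttg

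The lists differed greatly in length and depth. They held 795 non-CEN peaks for wild type endogenous Cse4, 167 for cdc7-7 endogenous Cse4, 30 for wild type GAL-FLAG-CSE4 and 2188 for cdc7-7 GAL-FLAG-CSE4, beside 15 or 16 peaks at centromeres. The local background at the centromeres, which stands in for depth since the lists give no read totals, had medians of 200.35, 76.17, 37.89 and 145.64 fragments in the same order. A peak at the median non-CEN background of its list had to reach a pileup of 236, 100, 64 and 173 fragments to pass the weakest p of that list, which is 1.21, 1.41, 1.65 and 1.22 times the background with 1 added to both values. Fold enrichment below is the deposited value at the summit, (pileup + 1)/(background + 1), and its brackets are exact 95% Poisson intervals on the pileup, which cover counting error only and not the choice of the highest point.

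Altogether 8 sites met the rule, the 6 named here and 2 more that lie in repeated DNA. These 8 were 1.01% of the non-CEN peaks of wild type endogenous Cse4, 4.79% of those of cdc7-7 endogenous Cse4, 26.7% of those of wild type GAL-FLAG-CSE4 and 0.366% of those of cdc7-7 GAL-FLAG-CSE4. The site at the CUP1 repeat, between YHR054C and RUF5-2, had fold enrichments of 2.13, 2.22, 2.46 and 2.24 in the order of the lists given above. Its background was 3.6 to 4.8 times the median centromere background, and only 14.9% of its 50-base words occur once in the genome. The site in the ribosomal DNA spacer, between RDN5-1 and RDN37-2, had fold enrichments of 1.38, 1.52, 2.09 and 1.67, and 60.7% of its words occur once. At the 6 named sites 96.9% to 100% of the 50-base words over the joint extent occur once, against 94.1% of the genome, so the named sites lie in largely unique DNA.

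Presence in the shortest list decided membership. Of its 30 non-CEN peaks, 5 had a counterpart in no other list, 10 were in 2 lists, 7 in 3 and 8 in all 4. Just inside the rule, the weakest calls were those of YDR524C-B in cdc7-7 endogenous Cse4, with a -log10 q of 3.31, and of HIP1 in wild type GAL-FLAG-CSE4, with 4.05. Just outside it, with 3 lists each, were 3 peaks in or beside PMA1, which encodes the plasma membrane proton pump, 1 near HSP150 and CIS3, both cell wall proteins, 1 near PRP6 and MRX18, 1 near NUC1 and LAA1 and 1 near AXL1. Those at PMA1 and near HSP150 were absent from the cdc7-7 GAL-FLAG-CSE4 list, and the other 3 were absent from the cdc7-7 endogenous list.

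**Figure D1:**
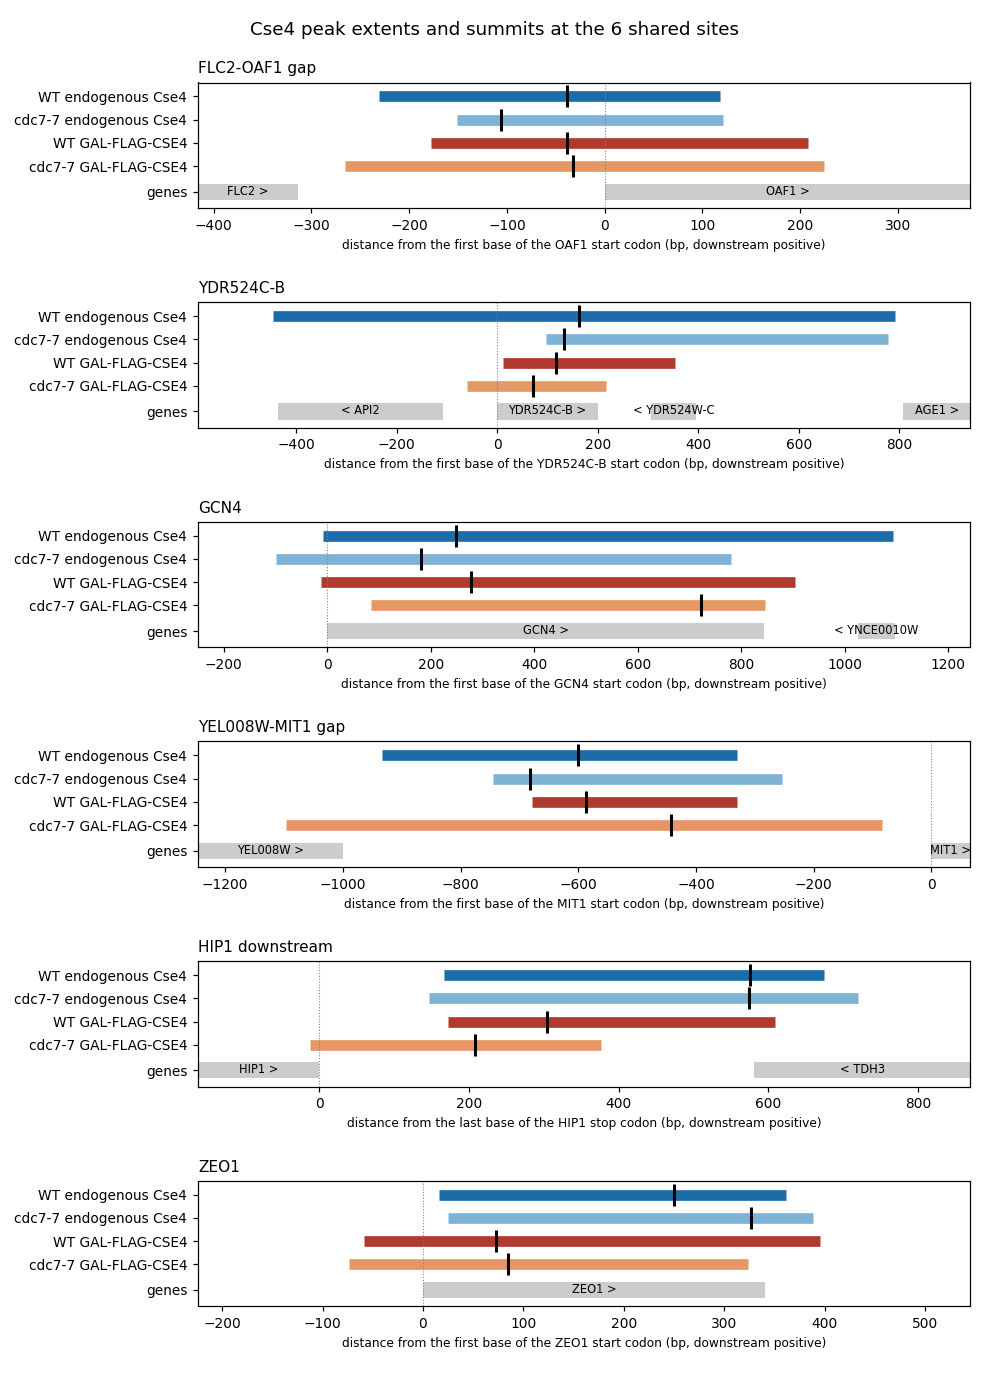
Deposited peak extents (colored bars) and summits (black ticks) of the 4 lists at the 6 shared sites, with distance in bp from a codon of the gene named on each axis, downstream positive; gray boxes are genes and arrowheads their direction. At GCN4 the cdc7-7 GAL-FLAG-CSE4 summit sits at 722 bp while the other 3 sit between 181 and 277 bp, and at ZEO1 the GAL-FLAG-CSE4 summits sit at 73 and 85 bp while the endogenous ones sit at 250 and 327 bp.

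OAF1 encodes an activator of genes for fatty acid use and peroxisome growth on oleate, and FLC2 a membrane protein linked to flavin transport and calcium. The 313-bp gap between them, chrI:48251-48563, is tandem, so it lies after FLC2 and before OAF1. No peak reached FLC2 in any list, whereas every peak ran from the gap into the first part of OAF1, covering 119, 122, 209 and 225 bp of it in the order wild type endogenous, cdc7-7 endogenous, wild type GAL-FLAG-CSE4 and cdc7-7 GAL-FLAG-CSE4, an order kept for every site below. The extents were 48333-48682, 48413-48685, 48386-48772 and 48298-48788, with widths of 350, 273, 387 and 491 bp. The summits lay 38, 106, 38 and 32 bp before the start codon of OAF1.

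The pileups at the OAF1 summit were 280, 115, 74 and 279 fragments over backgrounds of 168.55, 66.76, 34.12 and 120.11. Fold enrichment was 1.66 [1.47 to 1.86], 1.71 [1.42 to 2.05], 2.14 [1.68 to 2.67] and 2.31 [2.05 to 2.60]. The interval of cdc7-7 GAL-FLAG-CSE4 did not overlap that of wild type endogenous Cse4 and barely overlapped that of cdc7-7 endogenous Cse4. The site ranked 4 of 30 by fold in wild type GAL-FLAG-CSE4 and 9 of 2188 in cdc7-7 GAL-FLAG-CSE4, against 68 of 795 and 70 of 167 in the endogenous lists.

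YDR524C-B is a short gene of 201 bp whose product is uncharacterized. It lies between YDR524W-C and API2, both small open reading frames. The 4 peaks had extents of 1489007-1490243, 1489020-1489701, 1489444-1489786 and 1489582-1489858, so the width was 1237, 682, 343 and 277 bp, and the widest was 4.47 times the narrowest. The base shared by all lists was a stretch of 120 bp, 9.7% of the joint extent. The summits nevertheless stayed within 91 bp of each other, at 163, 134, 117 and 72 bp into the coding sequence.

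The wild type endogenous peak covered all of YDR524C-B, all 330 bp of API2 and all 90 bp of YDR524W-C. In cdc7-7 GAL-FLAG-CSE4 the peak covered YDR524C-B but neither neighbor, and a separate peak 375 bp to its left, with a summit between AGE1 and YDR524W-C, had the higher fold enrichment, 1.94. At the YDR524C-B summit itself the pileups were 338, 109, 78 and 200 over backgrounds of 199.73, 68.14, 39.78 and 128.65. Fold enrichment was 1.69 [1.51 to 1.88], 1.59 [1.31 to 1.92], 1.94 [1.54 to 2.41] and 1.55 [1.34 to 1.78], and every pair of intervals overlapped. It ranked 16 of 30 in wild type GAL-FLAG-CSE4 and 1003 of 2188 in cdc7-7 GAL-FLAG-CSE4, near the middle of both lists.

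GCN4, the master activator of amino acid biosynthesis genes under starvation, carried the widest shared stretch of the 6 named sites. All 4 peaks lay mainly on the coding sequence, chrV:138918-139763, and 698 bp were common to them. The extents were 138670-139772, 138982-139863, 138859-139776 and 138917-139679, with widths of 1103, 882, 918 and 763 bp, and they covered 100%, 92.4%, 100% and 90.1% of the gene. Of the 748-bp divergent gap before GCN4, which holds its regulatory leader, the peaks took only 9, 100, 13 and 0 bp. The wild type endogenous peak ran through the 180 bp after GCN4 and 68 bp into the neighboring tRNA gene YNCE0010W.

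The pileups at GCN4 were 476, 156, 86 and 239 over backgrounds of 222.60, 78.27, 43.56 and 158.99. Fold enrichment was 2.13 [1.95 to 2.33], 1.98 [1.68 to 2.32], 1.95 [1.57 to 2.41] and 1.5001 [1.32 to 1.70]. The value in cdc7-7 GAL-FLAG-CSE4 lay under the other 3, and its interval overlapped that of cdc7-7 endogenous Cse4 and wild type GAL-FLAG-CSE4 but not that of wild type endogenous Cse4. The summits were at 248, 181, 277 and 722 bp into the gene, so the library with the lowest fold also had the summit that stood apart, by 445 bp or more. GCN4 ranked 5 of 795 by fold in wild type endogenous Cse4 and 1245 of 2188 in cdc7-7 GAL-FLAG-CSE4.

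The next site to the right lies between YEL008W, an uncharacterized open reading frame, and MIT1, which encodes a regulator of filamentous growth. The peaks there began 1116 to 1437 bp after those of GCN4 and stayed in the 999-bp tandem gap, chrV:140893-141891, except that the peak of cdc7-7 GAL-FLAG-CSE4 entered YEL008W by 97 bp. No peak reached MIT1. The extents were 140959-141561, 141147-141639, 141214-141562 and 140796-141808, and the widths 603, 493, 349 and 1013 bp. The cdc7-7 GAL-FLAG-CSE4 peak was thus 2.90 times as wide as the wild type GAL-FLAG-CSE4 peak. These lists differ in depth, and a call took 1.22 and 1.65 fold at their median backgrounds. The part of depth in the width was not tested. The summits lay 600, 682, 587 and 442 bp before the start codon of MIT1.

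The pileups before MIT1 were 366, 144, 81 and 425 over backgrounds of 205.98, 88.39, 39.76 and 170.82. Fold enrichment was 1.77 [1.60 to 1.96], 1.62 [1.37 to 1.91], 2.01 [1.60 to 2.50] and 2.48 [2.25 to 2.73]. The interval of cdc7-7 GAL-FLAG-CSE4 lay above those of both endogenous libraries and overlapped that of wild type GAL-FLAG-CSE4. This peak was the second highest of 2188 by fold in its list, while GCN4, just to its left, was near the middle of the same list. The order of the pair was reversed in the endogenous lists, where GCN4 had the higher fold in both strains, with overlapping intervals in each. In wild type GAL-FLAG-CSE4 the fold was 1.95 at GCN4 and 2.01 before MIT1, again with overlapping intervals.

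HIP1 encodes the high-affinity histidine permease, and its right neighbor TDH3 the main glyceraldehyde-3-phosphate dehydrogenase of glycolysis. The 580-bp gap between them, chrVII:882232-882811, is convergent, so it lies after both genes and is the promoter of neither. The extents were 882398-882905, 882378-882951, 882403-882840 and 882219-882608, and the widths 508, 574, 438 and 390 bp. The first 3 peaks ran 94, 140 and 29 bp into TDH3 and not into HIP1, whereas that of cdc7-7 GAL-FLAG-CSE4 ran 13 bp into HIP1 and not into TDH3.

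The summits fell in separate places of the HIP1 to TDH3 gap. They lay 576 and 575 bp after HIP1 in the endogenous lists, 5 and 6 bp from the end of TDH3, and 304 and 208 bp after HIP1 in wild type and cdc7-7 GAL-FLAG-CSE4. Both endogenous lists held a further peak inside TDH3, with fold enrichments of 1.63 and 1.75, and neither GAL-FLAG-CSE4 list did. In wild type GAL-FLAG-CSE4, the shallowest list, a call took 1.65 fold at the median background. A peak of such fold could therefore go uncalled there. The cdc7-7 GAL-FLAG-CSE4 list held other peaks before HIP1 and between TDH3 and PDX1, with fold enrichments of 1.74 and 1.67.

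The pileups after HIP1 were 362, 172, 74 and 243 over backgrounds of 189.03, 70.29, 38.36 and 145.98. Fold enrichment was 1.91 [1.72 to 2.12], 2.43 [2.08 to 2.82], 1.91 [1.502 to 2.39] and 1.66 [1.46 to 1.88]. The highest value was in cdc7-7 endogenous Cse4, where the site ranked 2 of 167, and its interval did not overlap that of cdc7-7 GAL-FLAG-CSE4.

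ZEO1 encodes a small peripheral membrane protein that acts with the stress sensor Mid2 in cell wall integrity signaling. Its 342-bp coding sequence, chrXV:110297-110638, was covered to 95.3%, 92.7%, 100% and 95.0%. The extents were 110313-110659, 110322-110685, 110238-110692 and 110223-110621, with widths of 347, 364, 455 and 399 bp, the narrowest spread of widths among the 6 sites. The GAL-FLAG-CSE4 peaks began 59 and 74 bp before the start codon and the endogenous peaks 16 and 25 bp after it. The summits lay at 73 and 85 bp with GAL-FLAG-CSE4 and at 250 and 327 bp with endogenous Cse4, so the summits lay apart by expression system and medium and close together by CDC7 allele.

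The pileups at ZEO1 were 330, 132, 91 and 265 over backgrounds of 190.69, 72.04, 38.35 and 145.19. Fold enrichment was 1.73 [1.55 to 1.92], 1.82 [1.53 to 2.16], 2.34 [1.89 to 2.87] and 1.82 [1.61 to 2.05]. Every pair of intervals overlapped, the highest value being that of wild type GAL-FLAG-CSE4, the shallowest list, where the site ranked 2 of 30. A separate peak of cdc7-7 GAL-FLAG-CSE4 lay 642 bp to the left with its summit in SHR5, with a fold enrichment of 1.63.

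**Figure D2:**
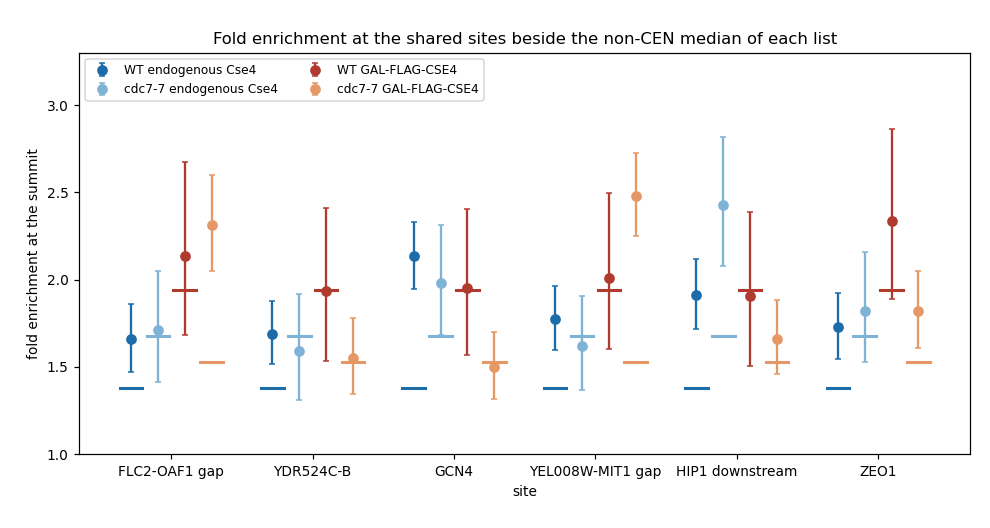
Deposited fold enrichment at the summit (points) with exact 95% Poisson counting intervals (whiskers) for each site and list; the short line behind each point is the median of all non-CEN peaks of that list. All 6 sites lie above the line of wild type endogenous Cse4 (1.38) and 4 of 6 above that of wild type GAL-FLAG-CSE4 (1.94). Selection on a call in the shallowest list favors such positions in the deeper lists.

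Across the 6 sites the median fold enrichment was 1.75 for wild type endogenous Cse4, 1.77 for cdc7-7 endogenous Cse4, 1.98 for wild type GAL-FLAG-CSE4 and 1.74 for cdc7-7 GAL-FLAG-CSE4. The medians over all non-CEN peaks of the same lists were 1.38, 1.68, 1.94 and 1.53. Thus 6, 4, 4 and 5 of the 6 sites lay above the median of their list. In the deeper lists the rule favored this position, since each site also had to be called in the shallowest list. Centromere peaks had medians of 5.45, 8.58, 5.18 and 2.55, and the lowest centromere peaks in the first 3 lists, 3.40, 4.70 and 3.13, were above every shared site. In cdc7-7 GAL-FLAG-CSE4 the lowest centromere peak was 1.89. The peaks before MIT1 (2.48) and before OAF1 (2.31) were above it, and those of the other sites below it. The peak before MIT1 came close to the centromere median of that list. The low centromere fold of that list and its large number of non-CEN peaks stand beside each other, and their relation was not tested.

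Differences in fold enrichment between lists varied from site to site. Each fold was read at the summit of its own list, so a difference can compare different bases of a site. From wild type to cdc7-7 with GAL-FLAG-CSE4, fold enrichment was higher before OAF1 and before MIT1, by 0.176 and 0.468. It was lower at YDR524C-B, GCN4, HIP1 and ZEO1, with differences between -0.245 and -0.518. At every site the counting intervals of these lists overlapped. The peaks that were higher were those with summits before a start codon in a tandem gap, and the 4 that were lower had summits within genes or in a convergent gap, a grouping made after the values were seen. With endogenous Cse4 the same comparison gave differences between -0.153 and 0.516, again with overlapping intervals at every site. Within wild type, GAL-FLAG-CSE4 had the higher fold at 4 of 6 sites, with overlapping intervals at every site. The remaining 2 sites were GCN4, with a difference of -0.181, and HIP1, with -0.005. Every site had to be called in wild type GAL-FLAG-CSE4, the shallowest list. A call there took 1.65 fold at the median background, against 1.21 in wild type endogenous Cse4. The rule thus favored higher fold in wild type GAL-FLAG-CSE4. Within cdc7-7, GAL-FLAG-CSE4 had the higher fold before OAF1 and before MIT1, by 0.6 and 0.857, and at the other sites the differences were between -0.767 and -0.002.

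**Figure D3:**
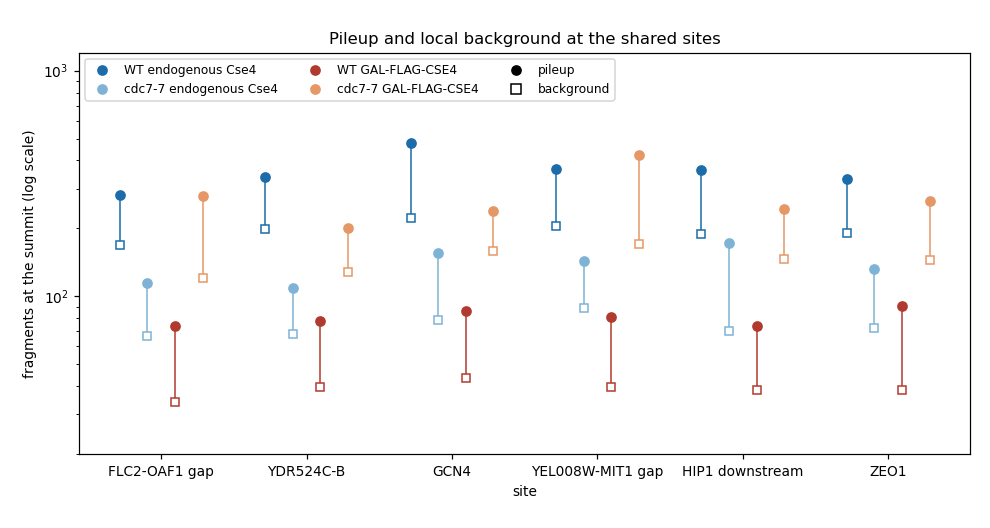
Fragment pileup (filled circles) and local background (open squares) at the summit for each site and list, on a log scale. Within each list the backgrounds of the 6 sites lie close together, whereas between lists they differ by depth, from 34.12 to 222.60 fragments.

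Background at the 6 sites changed with depth more than with the site. It was 0.84 to 1.11 times the median centromere background in wild type endogenous Cse4, 0.88 to 1.16 times in cdc7-7 endogenous Cse4, 0.90 to 1.15 times in wild type GAL-FLAG-CSE4 and 0.82 to 1.17 times in cdc7-7 GAL-FLAG-CSE4. In every list it was lowest before OAF1 and highest at GCN4 or before MIT1. Median widths were 555.5, 533.5, 412.5 and 445.0 bp, against 420.0, 415.0, 387.5 and 478.0 bp over all non-CEN peaks. Both endogenous lists had 4 of 6 sites wider than their median, and both GAL-FLAG-CSE4 lists 3 of 6. Widths were not adjusted for depth, so strain and depth cannot be told apart in differences of width between lists.

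**Figure D4:**
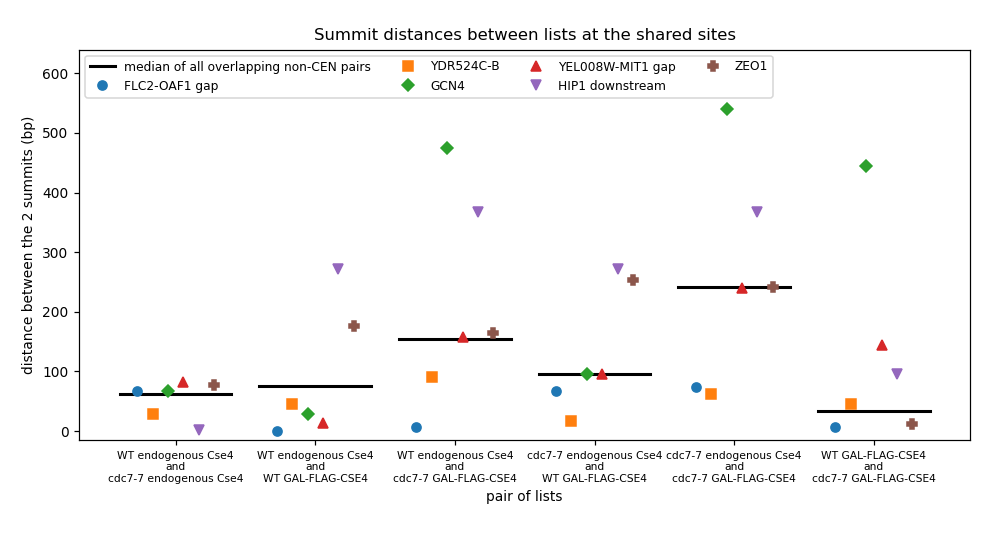
Distance in bp between the summits of each pair of lists at each shared site (symbols), with the median over all overlapping non-CEN peaks of the same pair of lists (black lines). GCN4 lies at 445 to 541 bp in the pairs with cdc7-7 GAL-FLAG-CSE4, and HIP1 at 271 to 368 bp between endogenous and GAL-FLAG-CSE4 lists.

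Summit distances had the narrowest range between the endogenous strains, from 1 to 82 bp at the 6 sites with a median of 67.5 bp, close to the 62.0 bp of all 137 overlapping pairs of those lists. Between cdc7-7 endogenous Cse4 and cdc7-7 GAL-FLAG-CSE4 the median was 241.0 bp, the same as over all 80 pairs. Between the GAL-FLAG-CSE4 lists it was 70.5 bp, against 33.5 bp over all 20 pairs, which include the 6. The largest distance at a site was 74 bp before OAF1, 91 bp at YDR524C-B, 240 bp before MIT1, 254 bp at ZEO1, 368 bp after HIP1 and 541 bp at GCN4. Only before OAF1 and at GCN4 did all 4 summits fall within the stretch shared by all peaks.

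The sites shared little in position or sequence. Their summits were inside a gene at 3 of 6 sites in every list, while 65.7%, 76.6%, 43.3% and 31.4% of all non-CEN summits were. GCN4 and the MIT1 gap lie 10537 to 12946 bp from the centromere of chromosome V, and the other sites are 102933 bp or more from theirs. GCN4 and ZEO1 have a tRNA gene within 845 and 592 bp of their summits. A and T made up 39.6% to 48.5% of the 101 bases around the YDR524C-B summits and 60.4% to 68.3% around those after HIP1, against 61.7% of the genome.

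In all, 6 short motifs were searched on both strands in 301 bases at the middle of each shared stretch. The windows at non-CEN peaks were instead centered on the summits, so the 2 kinds of window differ in place. The GCN4 window, chrV:139180-139480, held no summit, and that after HIP1 held neither endogenous summit. Those before MIT1 and at ZEO1 missed the cdc7-7 endogenous summit. TATAAA, the TATA element, was found once, after HIP1, and is in 29.3% of 40095 genome windows of the same length and in 19.2% to 36.7% of the windows at non-CEN peaks of the 4 lists. A run of AAAAAAAA was found before MIT1 and after HIP1, 2 of 6 sites, and in 13.0% of genome windows, against 9.94%, 16.8%, 30.0% and 19.4% of the windows at non-CEN peaks of the lists in the usual order. TGACTCA, the Gcn4 motif, was found in the GCN4 coding sequence, at 272, 339 and 243 bp from the summits of the first 3 lists and 202 bp from that of cdc7-7 GAL-FLAG-CSE4, and it is in 2.62% of genome windows and 1.83% to 3.33% of those at non-CEN peaks. TTACCCG, the Reb1 core, and TCACATG and TCACGTG, both forms of the first centromere DNA element, were in none of the 6 windows and in 1.87%, 2.34% and 1.27% of the genome windows, and in 0.0% to 5.39% of those at non-CEN peaks.

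Codon adaptation, a measure of how far a gene uses the codons of the ribosomal protein genes, set the coding members apart from each other. The index was 0.782 for YDR524C-B and 0.645 for ZEO1, above 98.2% and 96.4% of 5927 genes, and 0.324 for GCN4, above 87.5%. It was 0.276 for HIP1, 0.238 for FLC2, 0.226 for MIT1 and 0.219 for OAF1, against a median of 0.217 over all genes, and 0.139 for YEL008W. TDH3, next to the HIP1 site, had 0.923. Among the members, the 3 sites with summits inside a coding sequence were those with the highest indices. TDH3, not a member, had a higher index still, and no summit of the shared site lay inside it. Both endogenous lists did hold a further peak inside TDH3. The indices of genes under other non-CEN summits were not compared, and the part of expression in these peaks was not tested.

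Genes of the same pathways are set here beside all 6002 genes, of which 19.8%, 4.32%, 0.683% and 55.7% had a peak on the gene or within 1 kb upstream in the order of the lists. Only 2.5% of all genes, 150, had one in 3 or 4 lists, and 0.25%, 15 genes, had one in all 4. Of 20 amino acid permease genes, 10, 0, 0 and 16 had one, and HIP1 itself had one only in cdc7-7 GAL-FLAG-CSE4, since its shared site lies downstream. Of 15 genes of general amino acid control, 2, 2, 1 and 6 had one, and GCN4 was the only gene among them with more than 2 lists. FLC2 had none in any list, while its relative FLC1 had peaks of 1.26 and 1.63 fold in wild type endogenous Cse4 and cdc7-7 GAL-FLAG-CSE4.

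Of 10 genes of the oleate response, 3, 1, 1 and 6 had a peak, and OAF1 was the only one in all lists. PIP2, which encodes the partner of Oaf1, had one only in cdc7-7 GAL-FLAG-CSE4, at 1.24 fold. Of 12 regulators of filamentous growth, 6, 1, 1 and 9 had one, and MIT1 stood alone in all lists, while its paralog YHR177W was in 2. Of 10 genes of the eisosome and of cell wall integrity, 3, 1, 1 and 5 had one, and again only ZEO1 was in every list. The sensor gene MID2 had a peak of 1.47 fold in cdc7-7 GAL-FLAG-CSE4 alone. The genes found in every list were members that the rule had chosen, so their presence there says nothing particular about the pathways. In single lists some of the counts lay above the share of all genes and others below it, and these differences were not tested.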

How the data were processed

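Endogenous and galactose-induced Cse4 were profiled by ChIP-seq. Per the paper's Methods and the labels, the authors aligned 50-base paired reads to R64 with Bowtie 1.0.0, removed duplicates with Samtools, down sampled the inputs and called narrow peaks per library with MACS at a q of 0.05. The deposited lists give fold enrichment (a ratio over local background), the -log10 p-value and -log10 q-value at the summit, and an integer display score, which was not used. The total depth is not in the lists.

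Pileup (a whole number) and background were solved from the fold and the Poisson -log10 p, with 95% exact Poisson intervals. The solver was tested on simulated data. A site counted where a wild type GAL-FLAG-CSE4 non-CEN peak overlapped a non-CEN peak of each other list by at least 1 bp. The named genes are the 8 members, the genes flanking each site, further sites found by the rule and, of the related lists, genes in 3 or more peak lists while further genes were picked with their values in view. The members and lists were chosen with earlier results of these data known. WSC1 of the cell wall list is annotated as SLG1. Positions are 1-based, and sequences and annotation are from the RefSeq copy of R64, in Python 3.11.15 with numpy 2.4.6, pandas 2.3.3 and scipy 1.17.1. Alternatives are given in the closing section, and no alignment or coverage track was used here.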

Additional observations from a re-analysis of the deposited data

Results flagged for a closer look

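At 3 sites the difference in fold enrichment between cdc7-7 and wild type had opposite signs with endogenous Cse4 and with GAL-FLAG-CSE4, which is what brought them here. With 1 library per strain the difference between these differences was not tested. In the gap before MIT1 the difference was -0.151 with endogenous Cse4 and 0.468 with GAL-FLAG-CSE4. After HIP1 it was 0.516 and -0.245, and at ZEO1 0.094 and -0.518. In each of these comparisons the counting intervals of cdc7-7 and wild type overlapped. Each fold was read at the summit of its own list. The endogenous summits lay 576 and 575 bp after HIP1, and those of GAL-FLAG-CSE4 304 and 208 bp after it. At ZEO1 they lay at 250 and 327 bp against 73 and 85 bp. The opposite signs thus compare different bases of these sites. Under both systems the sign was the same before OAF1, at YDR524C-B and at GCN4.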

How the results depend on the processing

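No paired analysis was possible because each strain gave 1 ChIP library. The count of 8 shared sites became 5 where the 4 summits had to lie within 250 bp, which removed GCN4, HIP1 and ZEO1, and 5 where -log10 q had to reach 5 in every list, which removed OAF1, YDR524C-B and HIP1. It was between 7 and 8 under the other alternatives of overlap, fold, merging and centromere distance. Of these, asking for at least 50% of the wild type GAL-FLAG-CSE4 peak to be covered in each other list removed HIP1. Leaving out a list, an alternative chosen after seeing the data, gave 57 sites without wild type GAL-FLAG-CSE4 and 8 to 12 without another list. The 6 named sites were necessarily among them, since a peak in every list remains when any list is left out.

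In the order wild type endogenous, cdc7-7 endogenous, wild type GAL-FLAG-CSE4 and cdc7-7 GAL-FLAG-CSE4, the median fold of the 6 sites was 1.269, 1.053, 1.023 and 1.137 times the non-CEN median and 0.321, 0.206, 0.383 and 0.682 times the CEN median. Without the pseudocount the fold stayed within counting error. Median width was 1.323, 1.286, 1.065 and 0.931 times the non-CEN median, and merging peaks closer than 200 bp changed none of the 4. With midpoints in place of summits the largest distance became 359.5 bp at YDR524C-B, 201.5 bp at GCN4, 133.0 bp in the gap before MIT1, 251.0 bp after HIP1 and 81.5 bp at ZEO1.

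Depth limits these values. Scaled to the shallowest list, the median pileups of 350.0, 138.0 and 254.0 in wild type endogenous, cdc7-7 endogenous and cdc7-7 GAL-FLAG-CSE4 became 66.0, 69.0 and 66.0, against 79.5 in that list. At that depth 5, 5 and 4 of the 6 sites would still pass its weakest -log10 p of 4.09. The sites that would not pass were OAF1 in wild type endogenous, YDR524C-B in cdc7-7 endogenous, and YDR524C-B and GCN4 in cdc7-7 GAL-FLAG-CSE4. Peak widths could not be scaled in this way.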
